A study of Mus musculus with 21 samples.

Results

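Heterozygous lumbar spinal cord was set against wild type cord in C57BL/6 mice of 3 months, gene by gene. Heterozygous mice lacked 1 of the 2 copies of 3110043O21Rik, which is the C9orf72 gene of the mouse. Genes were kept at 0.5 RPKM (reads scaled by transcript length and by library depth) or more in at least 3 of the 6 libraries, which left 13859 of the 19747 named genes of the table. The filter took out 5888 genes, of which 144 reached 0.5 RPKM in 2 libraries, and of the genes kept 115 reached it in exactly 3. Only 4 genes were kept through the heterozygous libraries alone and 7 through the wild type libraries alone.

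The heterozygous group (C9orf72 +/-) and the wild type group (C9orf72 +/+) had 3 libraries each. A null group (C9orf72 -/-) of 3 more libraries at the same age entered the model for its estimate of spread, and its values stand beside the others where useful. The series holds 21 libraries, with a separate set of 3 genotypes at 17 months (n = 4 each). The design text counts mice, so each library was taken as a mouse. The p-values of the model set a difference against the spread between libraries within the 3 genotypes of an age. The sources used here do not say how the allele was made, nor the sex or litter of the mice. At 3 months the Y-linked gene Ddx3y measured 13.3, 13.9 and 14.1 RPKM in heterozygous and 12.9, 11.9 and 13.7 RPKM in wild type libraries, as in males. At 17 months it ran from 0.382 to 21.4 RPKM in heterozygous and from 0.523 to 21.1 RPKM in wild type libraries. Both groups of that age were thus of mixed sex, which sets the ages apart. The question was which transcripts of the cord differ when a single copy is lost.

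C9orf72 is the gene whose repeat expansion is a frequent cause of familial amyotrophic lateral sclerosis and frontotemporal dementia. Its protein works in a complex with SMCR8 and WDR41 that acts on small GTPases and takes part in autophagy and lysosome function. In the nervous system it is made by neurons and by glia, and loss of both copies in mice is known for its effects on macrophages and microglia.

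All 6 libraries carried transcripts of neurons and of cholinergic cells. The synaptic gene Snap25 measured 1134 to 1170 RPKM in heterozygous and 1123 to 1156 RPKM in wild type libraries. The cholinergic enzyme gene Chat measured 12.2 to 12.5 RPKM in heterozygous and 10.9 to 12.9 RPKM in wild type libraries. The sensory neuron channel Scn10a reached at most 0.00381 RPKM in heterozygous and 0.0262 RPKM in wild type libraries, and the forebrain factor Emx1 at most 0.0298 RPKM in heterozygous and 0.0380 RPKM in wild type libraries, both below the filter. Library totals lay between 286889 and 292460 RPKM. Read totals were unknown. The most frequent ratio between low values put relative depth between 0.961 and 1.61 of wild type replicate 1, with a mean of 1.13 over heterozygous and 1.37 over wild type libraries. Relative to it, 44.5% to 50.4% of the ratios equalled those of whole numbers up to 6 (within 0.0015 on the log2 scale), so these depths are approximate. Across genes, the correlation of library pairs was 0.9967 to 0.9983 within a genotype and 0.9965 to 0.9981 between genotypes.

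Wild type replicate 1 stood apart from the other libraries. The first principal component of the 6 libraries, with 31.1% of the variance, placed it at -11.2 and the other 5 between -2.17 and 4.01. Hox genes of the caudal groups, which mark lumbar and sacral levels, were low or near 0 in it. Hoxd10 measured 8.58, 11.7 and 6.33 RPKM in heterozygous libraries, against 1.64, 13.6 and 11.2 RPKM in wild type libraries. Hoxc11 measured 1.11, 1.18 and 0.345 RPKM in heterozygous libraries and 0, 1.85 and 2.12 RPKM in wild type libraries. Hoxd11 measured 1.68, 2.31 and 0.762 RPKM in heterozygous libraries and 0.0499, 3.25 and 2.39 RPKM in wild type libraries. In all 3 genes wild type replicate 1 was the lowest library, and heterozygous replicate 3 was the next lowest. Hoxc9, of a more rostral group, measured 3.82, 4.05 and 4.04 RPKM in heterozygous and 4.50, 4.02 and 4.15 RPKM in wild type libraries, so the library was not low there. Hoxd9, of the same group as Hoxc9, measured 8.28, 9.39 and 9.19 RPKM in heterozygous and 6.93, 8.03 and 9.41 RPKM in wild type libraries, with wild type replicate 1 lowest. The same library had the highest level of the astrocyte filament gene Gfap, at 609 RPKM, while the heterozygous libraries lay between 438 and 499 RPKM and the other wild type libraries between 426 and 434 RPKM. Several results are therefore also given without it.

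**Figure D1:**
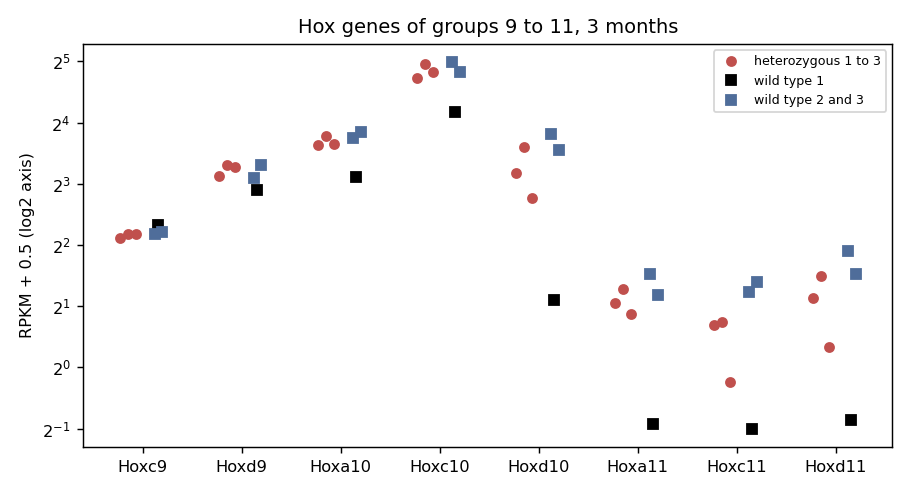
Levels of 8 Hox genes at 3 months as RPKM + 0.5 on a log2 axis, with 1 point per library (heterozygous as circles, wild type as squares, wild type replicate 1 in black). Wild type replicate 1 lies with the others for Hoxc9 and under all of them from Hoxd9 to Hoxd11, for example at 1.64 RPKM for Hoxd10.

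The targeted gene itself was the measure of gene dose. 3110043O21Rik is annotated as protein coding, on chromosome 4 (bases 35191285 to 35226175 of GRCm38, minus strand). It measured 0.599, 0.422 and 0.545 RPKM in null libraries, 6.66, 6.23 and 6.31 RPKM in heterozygous libraries, and 12.1, 12.2 and 12.1 RPKM in wild type libraries. The genotypes did not overlap, and replicates within a genotype lay close together. Heterozygous cords averaged 6.40 ± 0.228 RPKM and wild type cords 12.1 ± 0.0906 RPKM (SD, n = 3 each). Single heterozygous libraries held 54.9%, 51.3% and 52.0% of the wild type mean.

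Against wild type, 3110043O21Rik fell by 0.87 on the log2(RPKM + 0.5) scale in heterozygous cords (SE 0.06, 95% confidence interval -1.01 to -0.74, limma adjusted p = 0.000100). By exact permutation of the 6 libraries (two-sided) p was 0.1, which is as small as a design of 3 against 3 can give. Without wild type replicate 1 the difference was -0.88 (limma adjusted p = 0.001499). At 17 months, in other mice sequenced on another instrument, the gene measured 7.64, 7.42, 7.66 and 7.32 RPKM in heterozygous libraries, against 13.5, 13.7, 13.9 and 14.5 RPKM in wild type libraries. That is 54.0% of the wild type mean, and the groups again did not overlap. The difference there was -0.85 (SE 0.18) and did not pass the threshold in the model of 3 genotypes (limma adjusted p = 1.00). By exact permutation of those 8 libraries (two-sided) p was 0.0286, as small as 4 against 4 can give.

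**Figure D2:**
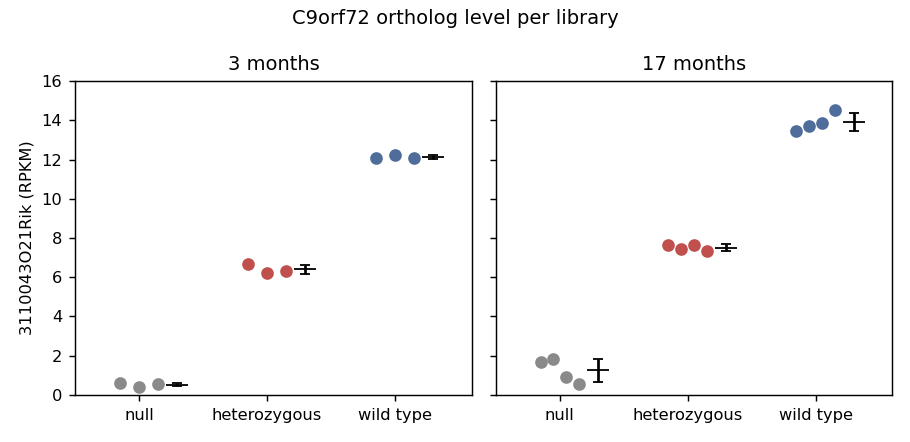
RPKM of the C9orf72 ortholog in each library at 3 months (n = 3 per genotype) and 17 months (n = 4 per genotype), with null, heterozygous and wild type from left to right. Points are libraries, and the bars beside them give the mean and SD; the heterozygous means are 6.40 and 7.51 RPKM and the wild type means 12.1 and 13.9 RPKM.

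Across the transcriptome, 3110043O21Rik was the 1 gene past the threshold (limma, Benjamini-Hochberg adjusted p under 0.05), which is 0.00722% of the genes tested. No gene passed on the higher side. An unadjusted limma p under 0.05 was reached by 490 genes (3.54%), with 312 (2.25%) higher and 178 (1.28%) lower. The 3 heterozygous libraries lay all above or all below the 3 wild type libraries in 1265 genes (9.13%), with 748 (5.4%) above and 517 (3.73%) below. The median gene differed by 0.0049 on the log2 scale, and 90% of the genes lay between -0.11 and 0.11.

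The confidence intervals give the size of difference that each measurement leaves room for. The median 95% confidence interval reached 0.11 on either side on the log2 scale, a fold of 1.08. For 13718 genes (99.0%) the whole interval lay within 1.5-fold. Among 1171 genes under 1 RPKM this held for 94.7%, and among 5258 genes of 10 to 100 RPKM for 99.7%. Folds of intervals, here and below, are of RPKM with the constant of the log2 scale added. That constant shrinks the differences and intervals of low genes. In plain RPKM the intervals of genes under 1 RPKM can therefore reach beyond 1.5-fold, and the 94.7% is not a measure of their precision in RPKM.

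On the log2(RPKM + 0.5) scale a difference beyond 1.5-fold in either direction was found in 6 genes. The targeted gene was the sole one of them past the threshold. In plain RPKM, genes of low level can lie further apart: the interferon gene Ifi27l2a averaged 171% of wild type, at 0.50 on this scale. Xlr3b, an X-linked gene of a family of near-identical copies, measured 2.11, 0.435 and 1.71 RPKM in heterozygous libraries and 4.28, 1.82 and 3.05 RPKM in wild type libraries. Its difference of -0.96 (SE 0.53, limma adjusted p = 0.999) was larger than that of the target, but its libraries overlapped. Sgk1, a kinase gene induced by glucocorticoids, measured 16.4, 43.5 and 59.7 RPKM in heterozygous libraries and 14.4, 33.5 and 25.4 RPKM in wild type libraries. The heterozygous libraries of Sgk1 spanned a wider range than the wild type ones and enclosed 2 of them (0.59, SE 0.59). The heat shock gene Hspa1b, the dynein light chain gene Dynlt1f and the small nucleolar RNA gene Snora81 were the other 3, with log2 differences of 0.61, 0.63 and 0.69. Of these only Snora81 had groups that did not overlap, at 1.07, 1.19 and 2.12 RPKM in heterozygous and 0.820, 0.408 and 0.890 RPKM in wild type libraries. Hspa1b and Dynlt1f have near-identical copies and Snora81 lies inside a host gene, so their reads may be shared with other genes.

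**Figure D3:**
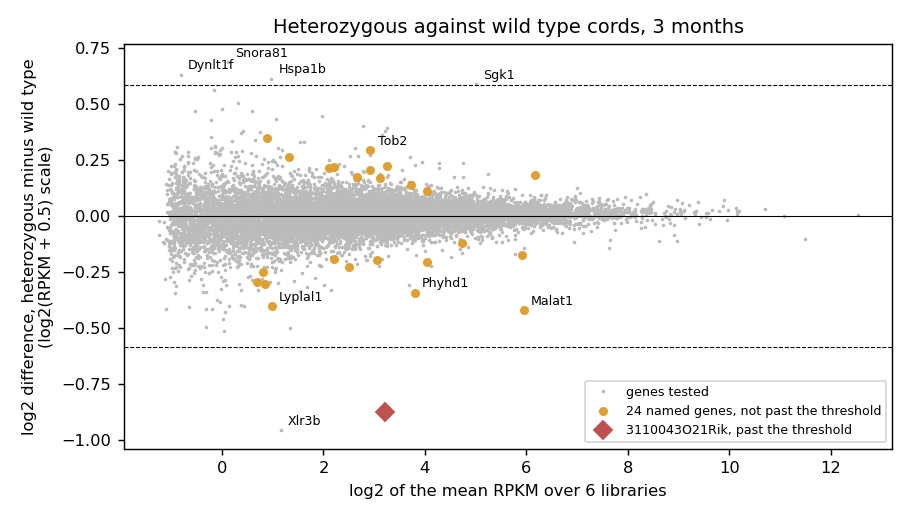
Log2 difference (heterozygous minus wild type, on the log2(RPKM + 0.5) scale) against the log2 mean RPKM of 13859 genes at 3 months, with dashed lines at 1.5-fold. The targeted gene (diamond, -0.87) stands apart from genes of its level, and the 24 named genes (orange) lie within 1.5-fold.

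The genes with the smallest p beside the target did not pass the threshold, and their values are given as measurements. They are the 12 in each direction with the smallest p among genes whose groups did not overlap and whose higher group averaged 1 RPKM or more. On the lower side, Phyhd1, a dioxygenase related to the peroxisomal enzyme of phytanic acid breakdown, came nearest. Phyhd1 measured 12.4, 11.6 and 12.6 RPKM in heterozygous libraries, against 16.7, 15.2 and 14.97 RPKM in wild type libraries. Every heterozygous library was under every wild type library (-0.34, SE 0.06, limma adjusted p = 0.368). Without wild type replicate 1 it was -0.29 (limma adjusted p = 0.868), and at 17 months it was 0.02 (SE 0.19).

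Lyplal1, a serine hydrolase related to lysophospholipases, had the largest log2 difference among the named genes after the nuclear long noncoding RNA Malat1. Lyplal1 measured 1.40, 1.75 and 1.74 RPKM in heterozygous libraries, against 2.24, 2.39 and 2.29 RPKM in wild type libraries (-0.40, SE 0.08, limma adjusted p = 0.962). Malat1 measured 51.2, 52.3 and 54.5 RPKM in heterozygous libraries, against 82.4, 68.8 and 62.1 RPKM in wild type libraries. The wild type libraries of Malat1 spread more than the heterozygous ones, with replicate 1 the highest, and without that replicate its difference of -0.42 (SE 0.09) was -0.31 (limma adjusted p = 0.372). At 17 months Lyplal1 differed by 0.05 (SE 0.12) and Malat1 by 0.28 (SE 0.64).

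Among the other genes on the lower side, St6galnac5, a sialyltransferase that builds brain gangliosides, measured 1.45, 1.52 and 1.72 RPKM in heterozygous libraries and 2.15, 2.05 and 1.92 RPKM in wild type libraries (-0.30, SE 0.07). Dao, the oxidase that degrades D-serine, measured 8.16, 7.68 and 7.30 RPKM in heterozygous libraries and 8.67, 9.14 and 8.85 RPKM in wild type libraries (-0.19, SE 0.05). In Dao the wild type libraries lay within 0.471 RPKM of each other, and the highest heterozygous library was 0.513 RPKM under the lowest of them. Selenbp1 (-0.23), Acyp1 (-0.21), the imprinted gene Nnat (-0.18), the matrix gene Ecm2 (-0.25), the G protein regulator Rgs9 (-0.19, and -0.14 without wild type replicate 1) and the endoplasmic reticulum insertase subunit Emc9 (-0.12) were also named. So was Pcdhgb5 (-0.29), a gamma protocadherin that shares its last exons with the rest of its cluster, which leaves the assignment of its reads uncertain. The limma adjusted p of the 12 genes ran from 0.368 to 0.999.

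On the higher side the smallest p belonged to Tob2, an antiproliferative protein that recruits the deadenylation machinery. Tob2 measured 7.64, 9.15 and 8.47 RPKM in heterozygous libraries, against 6.62, 6.85 and 6.80 RPKM in wild type libraries (0.29, SE 0.06, limma adjusted p = 0.962). The wild type libraries were close together and the heterozygous ones lay above them with a wider spread. Slc15a2, the peptide transporter of astrocytes and choroid plexus, measured 10.3, 10.6 and 9.88 RPKM in heterozygous libraries and 9.01, 8.52 and 8.55 RPKM in wild type libraries (0.23, SE 0.05). Adm, which encodes the vasodilator peptide adrenomedullin, measured 1.92, 2.14 and 2.33 RPKM in heterozygous libraries and 1.46, 1.73 and 1.51 RPKM in wild type libraries (0.35, SE 0.09). Adm had the largest difference of the 12 genes, and the gap between its groups was 0.198 RPKM.

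Ndufs5, a subunit of respiratory complex I, was the most abundant of the 12 genes. It measured 82.9, 73.7 and 74.7 RPKM in heterozygous libraries and 67.3, 66.1 and 69.7 RPKM in wild type libraries (0.19, SE 0.05). The remaining ones were the checkpoint factor Cinp (0.17), the alkaline phosphatase gene Alpl (0.21), the Golgi tether subunit Cog2 (0.17), the mitochondrial methyltransferase gene Fam173b (0.22), Tmem100 of endothelial BMP signalling (0.21, and 0.27 without wild type replicate 1), the transcription factor Deaf1 (0.14) and the transporter Mfsd5 (0.11). Their limma adjusted p ran from 0.962 to 0.999 over the 12 genes.

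**Figure D4:**
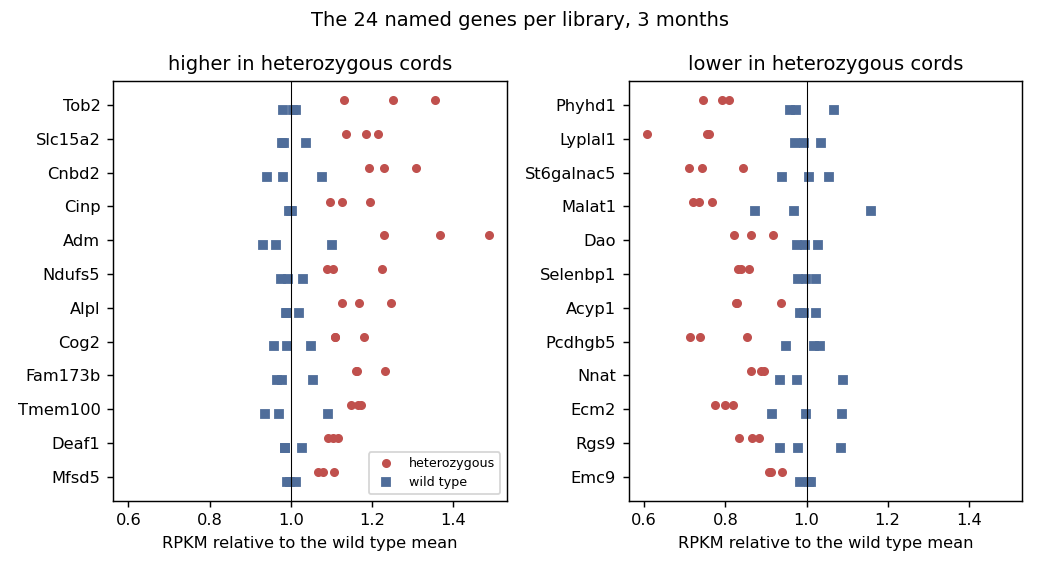
RPKM of each library relative to the wild type mean of the same gene, for the 12 named genes on the higher side (left) and the 12 on the lower side (right), with heterozygous libraries as circles above wild type libraries as squares. In each gene the 3 heterozygous libraries lie on a single side of the 3 wild type libraries, as the choice of genes required, and none of the 24 passed the threshold.

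The 17 month libraries came from other mice, of mixed sex by Ddx3y, and give a second measurement of these genes. The same direction was found there in 10 of the 12 higher genes and in 5 of the 12 lower genes, where 54.4% of all genes were higher and 45.6% lower. Medians at 17 months were 0.05 for the higher and 0.01 for the lower genes. Cnbd2, a cyclic nucleotide binding protein known from the testis, was the 1 named gene with an unadjusted p under 0.05 at both ages. It measured 2.65, 2.73 and 2.90 RPKM in heterozygous libraries and 2.18, 2.09 and 2.39 RPKM in wild type libraries at 3 months (0.26, SE 0.06). At 17 months it measured 2.56, 2.54, 2.53 and 2.88 RPKM in heterozygous libraries and 2.47, 2.25, 1.65 and 1.87 RPKM in wild type libraries (0.30, SE 0.13, limma adjusted p = 1.00). The heterozygous libraries of Cnbd2 lay above the wild type libraries at both ages, by 0.0570 RPKM at the closest at 17 months. At that age 0.521% of genes were higher with an unadjusted p under 0.05, and 1.15% had all heterozygous above all wild type libraries.

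Across all genes the ages shared little. Of 478 genes other than the target that had an unadjusted p under 0.05 at 3 months and were tested at both ages, 262 (54.8%) kept their direction at 17 months, against 6924 of 13535 (51.2%) of all genes tested at both. The 307 that were higher at 3 months had a 17 month median of 0.0088, and the 171 that were lower had one of -0.0099. An unadjusted p under 0.05 at both ages was found in 8 genes, the target among them, of which 7 had the same direction. These were chosen after their values were seen: Cnbd2, Prr16 (0.18 at 3 months and 0.24 at 17 months), Wbscr27 (0.15 and 0.22), the major histocompatibility gene H2-T22 (0.25 and 0.29), the pseudogene Tmem181c-ps (0.13 and 0.25) and the Nogo receptor gene Rtn4r (-0.16 and -0.18). Rsg1, a small GTPase of cilia, was higher at 3 months (0.27) and lower at 17 months (-0.20). At 17 months limma called 0 of 14009 genes in the model of 3 genotypes, and 120 (0.857%) had an unadjusted p under 0.05.

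The partners of the C9orf72 protein were measured at nearly the same level in both genotypes. Of 23 tested members of the complex and its partners, 0 passed the threshold by limma and 1 had an unadjusted p under 0.05, with 11 higher and 12 lower and a median of -0.0031 against 0.0049 over all genes (-0.01 without wild type replicate 1 and 0.02 without wild type replicate 2). Of all genes, 53.8% were higher and 46.2% lower. An unadjusted p under 0.05 was reached by 3.54% of all genes, and groups did not overlap in 9.13%. These shares are the background for every list below. Smcr8, which encodes the partner that stabilises C9orf72, measured 7.37, 7.15 and 6.80 RPKM in heterozygous libraries and 6.74, 7.15 and 6.90 RPKM in wild type libraries (0.03, 95% confidence interval -0.07 to 0.13). Wdr41, the subunit that anchors the complex at lysosomes, measured 11.1, 12.1 and 10.8 RPKM in heterozygous libraries and 11.2, 11.5 and 11.8 RPKM in wild type libraries (-0.03, 95% confidence interval -0.13 to 0.07). In both genes the groups overlapped, and all 23 intervals lay within 1.5-fold. Rab8a, a small GTPase that the complex is reported to act on, had the smallest p, with 12.97, 12.14 and 13.2 RPKM in heterozygous libraries and 12.06, 11.6 and 11.9 RPKM in wild type libraries (0.10, SE 0.04, limma adjusted p = 0.999).

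Genes of autophagy, lysosomes and nutrient signalling were likewise close between genotypes. Autophagy genes had 19 higher and 11 lower of 30 tested, with a median of 0.01, and 0 had an unadjusted p under 0.05. Lysosomal genes had 15 higher and 22 lower of 37, also with 0 under that level, and the protease gene Ctsl was the one with the smallest p (36.0, 37.5 and 36.3 RPKM in heterozygous, against 38.4, 37.9 and 38.2 RPKM in wild type libraries, -0.06, SE 0.03). For all 67 genes of these lists the interval lay within 1.5-fold. Among 25 genes of mTORC1 and TFEB control, the Ragulator subunits Lamtor2 and Lamtor5 had an unadjusted p under 0.05 in opposite directions. Lamtor2 measured 49.7, 47.3 and 46.4 RPKM in heterozygous libraries and 44.5, 43.0 and 44.5 RPKM in wild type libraries (0.12, SE 0.04). Lamtor5 measured 34.0, 33.7 and 32.9 RPKM in heterozygous libraries and 35.9, 35.3 and 35.7 RPKM in wild type libraries (-0.09, SE 0.03). Plekhm2, an adaptor between lysosomes and kinesin, measured 35.9, 35.0 and 33.8 RPKM in null libraries, 42.2, 41.5 and 42.0 RPKM in heterozygous libraries and 44.8, 41.6 and 41.9 RPKM in wild type libraries. Its heterozygous and wild type libraries overlapped (-0.03, SE 0.03).

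Microglial and immune lists had medians within 0.05 of 0. In bulk tissue, fewer cells of a type and less RNA per cell cannot be told apart. Homeostatic microglial genes had 12 higher and 8 lower of 20 tested, with a median of 0.0071, and their summed level was 628 to 655 RPKM in heterozygous and 666 to 703 RPKM in wild type libraries. Most of that sum was Sparc, a matrix protein made by microglia and also by astrocytes and vessels in the cord. Sparc measured 466, 496 and 490.3 RPKM in heterozygous libraries and 506, 513 and 549 RPKM in wild type libraries (-0.11, SE 0.03, limma adjusted p = 0.999). The receptor P2ry12, which is more restricted to microglia, measured 8.14, 7.44 and 7.07 RPKM in heterozygous libraries and 7.17, 6.95 and 7.32 RPKM in wild type libraries (0.07, SE 0.05), and the groups overlapped. Trem2, the receptor of the activated state, measured 6.26, 7.42 and 6.12 RPKM in heterozygous libraries and 7.77, 7.37 and 6.47 RPKM in wild type libraries (-0.12, SE 0.08). Without wild type replicate 1 the homeostatic median was 0.08 and that of activated microglial genes 0.06, against 0.0071 and 0.02 with it. Without wild type replicate 2 the homeostatic median was -0.03, and without heterozygous replicate 2 the activated one was 0.00055. At 17 months 2 of the 20 homeostatic genes were higher and 18 lower.

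Interferon genes had 15 higher and 4 lower of 19 tested, with a median of 0.03. An unadjusted p under 0.05 was found in 2 of them, against 3.54% of all genes. The median was 0.0042 without heterozygous replicate 2 and 0.05 without wild type replicate 2, and at 17 months 6 of the 19 were higher and 13 lower. Ifitm3, an antiviral membrane protein also made by vessels, measured 17.0, 17.8 and 15.3 RPKM in heterozygous libraries and 13.9, 14.1 and 14.03 RPKM in wild type libraries (0.24, SE 0.07, limma adjusted p = 0.999). Bst2, which tethers budding viruses, measured 3.52, 3.92 and 2.97 RPKM in heterozygous libraries and 2.33, 3.23 and 2.45 RPKM in wild type libraries (0.33, SE 0.11). Ifitm3 did not overlap between the genotypes and Bst2 did, and at 17 months the differences were -0.14 and -0.08. Antigen presentation genes had 10 higher and 4 lower of 14, with H2-DMb1 (-0.32) and Psmb9 (-0.40) under and H2-K1 (0.10) over wild type. These 3 had an unadjusted p under 0.05, as did 3.54% of all genes. Complement and Fc receptor genes (5 higher and 8 lower of 13) and inflammatory cytokine genes (5 higher and 5 lower of 10) had 0 members under that level. No T or NK cell gene of 15 in the table passed the filter, and their sum was 0.719 to 0.873 RPKM in heterozygous and 0.818 to 0.985 RPKM in wild type libraries.

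Groups did not overlap in 9.13% of all genes, and neuronal lists held some such genes too. There were 2 above and 4 below among 18 excitatory interneuron genes, 1 above and 2 below among 25 synapse genes, and 0 among 22 motor neuron genes. Excitatory interneuron and peptide genes had 5 higher and 13 lower of 18, with a median of -0.05 that was -0.03 without heterozygous replicate 2, and 4 had an unadjusted p under 0.05, against 3.54% of all genes. At 17 months 10 of the 18 were higher and 8 lower. Grp, the itch peptide of the dorsal horn, measured 8.01, 8.19 and 7.37 RPKM in heterozygous libraries and 8.75, 10.1 and 8.93 RPKM in wild type libraries (-0.22, SE 0.07, limma adjusted p = 0.999). Rora, a nuclear receptor of deep dorsal horn neurons, measured 6.19, 6.20 and 6.64 RPKM in heterozygous libraries and 4.66, 5.88 and 6.05 RPKM in wild type libraries (0.19, SE 0.08). The groups of Grp and of Rora did not overlap, and at 17 months the differences were -0.07 and 0.05. Of 23 axonal ion channel genes tested, 3 had an unadjusted p under 0.05, among them the R-type calcium channel gene Cacna1e (-0.17).

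Motor neuron and cholinergic genes had 16 higher and 6 lower of 22, with a median of 0.03 that was -0.0095 without wild type replicate 1 and 0.08 without wild type replicate 2. Their summed level was 2243 to 2391 RPKM in heterozygous libraries and 2041 to 2287 RPKM in wild type libraries. Nefl, the light neurofilament of large axons, made up much of it and measured 965, 959 and 1004 RPKM in heterozygous libraries and 876, 947 and 968 RPKM in wild type libraries (0.07, SE 0.04). The libraries overlapped, with wild type replicate 1 lowest. Genes linked to amyotrophic lateral sclerosis and frontotemporal dementia had 11 higher and 18 lower of 29, all with intervals within 1.5-fold. Tardbp, which encodes TDP-43, measured 22.5, 23.2 and 22.1 RPKM in heterozygous libraries and 23.3, 23.5 and 23.3 RPKM in wild type libraries (-0.05, SE 0.03).

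Oligodendrocyte and astrocyte lists had medians within 0.05 of 0, while the ependymal median was lower and the meningeal one higher. Oligodendrocyte and myelin genes had 11 higher and 12 lower of 23 (median -0.0073, with 0.05 without wild type replicate 1 and -0.07 without wild type replicate 2), and their precursors 6 higher and 10 lower of 16. The enzyme gene Qdpr, with the smallest p of the first list, measured 251, 257 and 250.3 RPKM in heterozygous libraries and 239, 238 and 236 RPKM in wild type libraries (0.09, SE 0.04). Astrocyte genes had 10 higher and 8 lower of 18, with Fgfr3 (0.10) and the bicarbonate transporter gene Slc4a4 (-0.07) at an unadjusted p under 0.05. Ependymal genes had 1 higher and 9 lower of 10 (median -0.10, and -0.06 without wild type replicate 1), while their defining factor Foxj1 measured 9.70 to 10.5 RPKM in heterozygous and 9.59 to 10.2 RPKM in wild type libraries. Meningeal and fibroblast genes had 8 higher and 4 lower of 12 (median 0.11). Without wild type replicate 1 that median was 0.01. With every library kept, their summed level was 360.3 to 409.5 RPKM in heterozygous and 327.5 to 391.9 RPKM in wild type libraries.

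Activity and stress genes were mostly on the higher side at 3 months, and heterozygous replicate 3 was highest for them. The second principal component, with 23.3% of the variance, placed that library at -9.17 and the other 5 between -2.43 and 5.46. Immediate early genes had 21 higher and 3 lower of 24, with a median of 0.12 that was 0.05 without heterozygous replicate 3 and 0.07 without wild type replicate 1. An unadjusted p under 0.05 was found in 3 of these genes, against 3.54% of all genes. Averaged over members and set against the wild type mean on the log2 scale, the list stood at 0.03, 0.07 and 0.23 in heterozygous libraries and at -0.09, 0.11 and -0.02 in wild type libraries. The third heterozygous library was the highest and the other 2 lay under wild type replicate 2. Fos, the classical marker of recent neuronal activity, measured 8.09, 10.5 and 14.2 RPKM in heterozygous libraries and 6.04, 10.4 and 8.20 RPKM in wild type libraries (0.39, SE 0.28). Dusp1, a phosphatase that ends MAP kinase signals, measured 8.45, 9.78 and 9.47 RPKM in heterozygous libraries and 7.77, 8.34 and 8.001 RPKM in wild type libraries (0.19, SE 0.06, limma adjusted p = 0.999). Nr4a1, an orphan nuclear receptor, measured 5.96, 6.18 and 6.75 RPKM in heterozygous libraries and 4.67, 5.91 and 4.90 RPKM in wild type libraries (0.27, SE 0.08). The groups of Dusp1 and of Nr4a1 did not overlap, and those of Fos did. No overlap was found in 3 of the 24 genes of the list and in 9.13% of all genes.

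Heat shock and endoplasmic reticulum stress genes had 20 higher and 1 lower of 21, with a median of 0.05 that was 0.0096 without heterozygous replicate 3 and 0.09 without heterozygous replicate 1. At 17 months 9 of these genes were higher and 12 lower (median -0.0088), and of the immediate early genes 14 were higher and 10 lower. The stress genes' averaged level at 3 months against the wild type mean stood at -0.03, 0.09 and 0.23 in heterozygous libraries and at -0.02, -0.00052 and 0.02 in wild type libraries. The chaperone gene Hspa1a measured 3.88, 4.55 and 5.38 RPKM in heterozygous libraries and 3.41, 3.02 and 3.23 RPKM in wild type libraries (0.45, SE 0.22), and it shares most of its sequence with Hspa1b. Glucocorticoid responsive genes had 13 higher and 5 lower of 18, and their median of 0.06 was -0.04 without heterozygous replicate 3, 0.14 without heterozygous replicate 1 and -0.02 without wild type replicate 1. Their averages stood at -0.12, 0.07 and 0.32 in heterozygous libraries, which spanned the wild type values of -0.11, 0.06 and 0.05. Ddit4, a stress inhibitor of mTORC1 in this list, measured 25.3, 31.0 and 30.7 RPKM in heterozygous libraries and 22.8, 25.1 and 25.6 RPKM in wild type libraries (0.24, SE 0.07). Hypoxia and glycolysis genes had 13 higher and 4 lower of 17, and 5 higher and 12 lower at 17 months. Adm, Ankrd37 (0.29) and the vascular growth factor gene Vegfa (0.18) were among the 4 at an unadjusted p under 0.05 at 3 months, against 3.54% of all genes. The part of that library's position in these values was not tested beyond leaving it out.

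No member of the cholesterol, ribosomal or respiratory chain lists passed the threshold by limma, and 2 ribosomal protein genes had an unadjusted p under 0.05. Cholesterol synthesis genes had 2 higher and 18 lower of 20, with a median of -0.05 that was -0.09 without wild type replicate 2, and 0 had an unadjusted p under 0.05. Idi1, the isomerase of the isoprenoid pathway, measured 29.96, 31.5 and 30.6 RPKM in heterozygous libraries and 33.2, 30.2 and 35.5 RPKM in wild type libraries (-0.10, SE 0.05). The genotypes overlapped for Idi1, and at 17 months 9 of the 20 genes were higher and 11 lower. Ribosomal protein genes had 44 higher and 11 lower of 55 at 3 months (median 0.02), and 3 higher and 52 lower at 17 months (median -0.06). Their processed copies across the genome leave reads of single members uncertain, and the 3 month median was 0.0054 with quantile normalization, 0.0012 without heterozygous replicate 1 and 0.04 without heterozygous replicate 3. Respiratory chain genes of the nucleus had 23 higher and 4 lower of 27 (median 0.02, and 0.0057 with quantile normalization), and 11 higher and 16 lower at 17 months.

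Over all lists, 37 had at least 3 tested members, and their medians ran from -0.19 to 0.12, with 32 within 0.05 of 0. The lowest was that of skeletal muscle, with 3 tested members of which Casq1 (0.746, 0.848 and 0.976 RPKM in heterozygous, against 1.33, 1.06 and 1.09 RPKM in wild type libraries) was the one with an unadjusted p under 0.05. That median was -0.10 without heterozygous replicate 1 and -0.30 with a pseudocount of 0.1. The lists held 699 distinct tested genes, of which 0 passed the threshold by limma and 38 (5.44%) had an unadjusted p under 0.05, with 408 higher and 291 lower. Of all genes 3.54% reached that level, and 53.8% were higher and 46.2% lower.

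**Figure D5:**
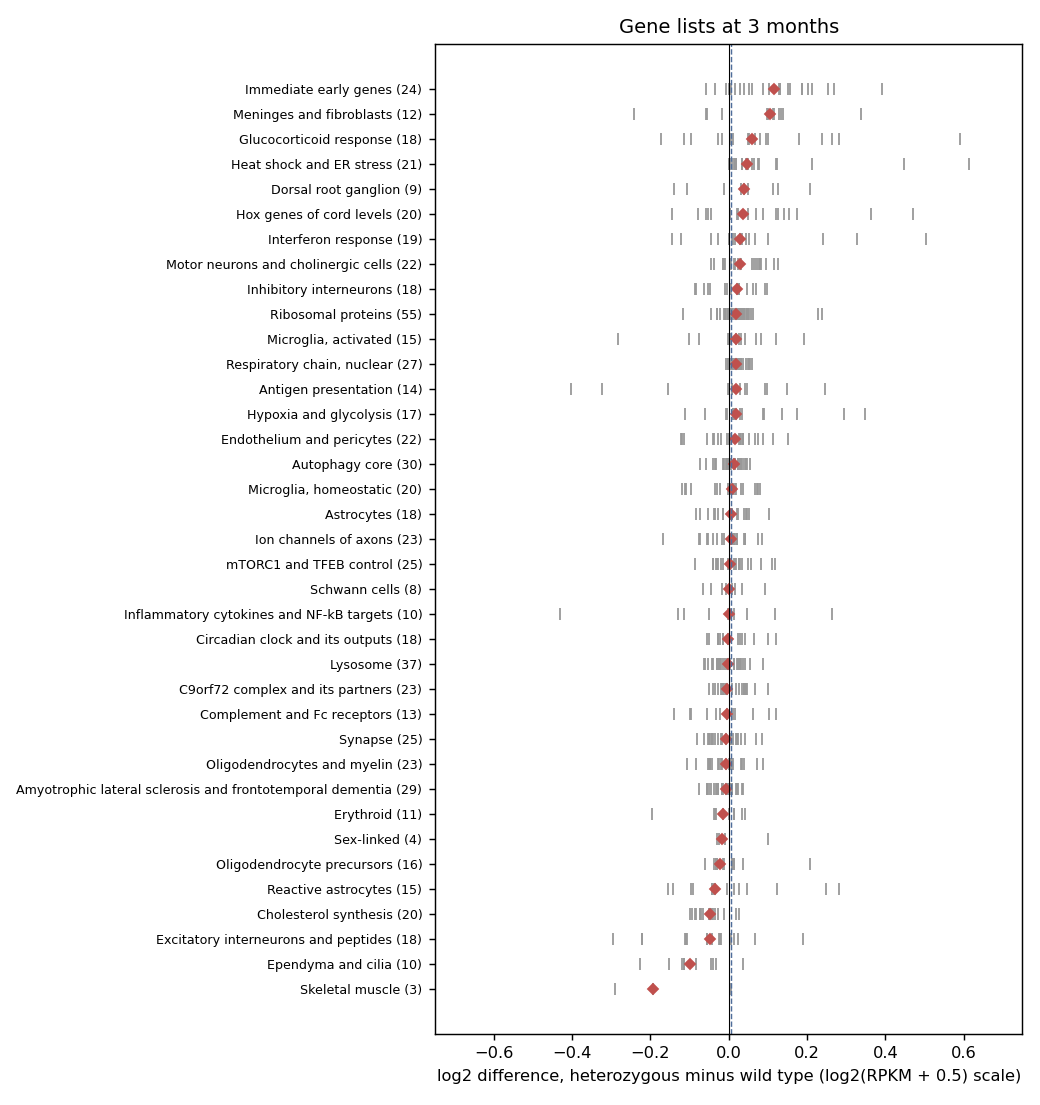
Log2 difference (heterozygous minus wild type) of each tested member (ticks) and the median (diamonds) of 37 gene lists at 3 months, ordered by median, with the number of tested members in brackets and the median of all genes as a dashed line. Medians run from -0.19 for skeletal muscle to 0.12 for immediate early genes, and members spread to both sides of 0 in most lists.

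Genes on either side of the target share its chromosomal surroundings. Mob3b, the nearest tested neighbour on one side, measured 3.51, 2.83 and 3.12 RPKM in heterozygous libraries and 4.34, 3.00 and 3.50 RPKM in wild type libraries (-0.16, SE 0.10). Lingo2, a neuronal leucine-rich repeat protein and the nearest on the other side, measured 3.35, 3.58 and 3.37 RPKM in heterozygous libraries and 3.803, 3.59 and 3.93 RPKM in wild type libraries (-0.12, SE 0.05, limma adjusted p = 0.999). The heterozygous libraries of Lingo2 all lay under the wild type ones, and those of Mob3b overlapped with them. The other 8 neighbours tested (Rars2, Slc35a1, Smim8, Zfp292, Aco1, Ddx58, Topors and its antisense gene Toporsos) differed by -0.07 to 0.08. Rars2, Slc35a1, Smim8 and Zfp292 lay 308 to 531 kb from the target. Aco1, Ddx58, Topors and Toporsos were much further away, at 4917 to 5043 kb. These distances run between the nearest ends of genes. Counted instead between gene midpoints, which leaves out Ddx58, 24 genes were tested within 5 Mb of the target. Their median was -0.01, against 0.0096 over the 867 genes of chromosome 4. Of these 24 genes, 0 passed by limma and 1 (4.17%) had an unadjusted p under 0.05, against 3.54% of all genes.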

How the data were processed

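RNA of lumbar spinal cord was extracted from frozen tissue, and the 3 month libraries were made with an Illumina kit and those of 17 months by an Ion Torrent protocol, per the labels' protocols. For each age the authors deposited a table of RPKM values. TopHat2 2.0.8b, Partek and the builds mm9 and mm10 are named per the submitters' processing notes, without saying which build served which table. For the annotation, any filter and the handling of strand and shared reads, the entry is "not given in the sources used here". Whether fragments or reads were counted is not stated either. Read depth is unknown, so no counting error is given, and only relative depth was taken from ratios of low values.

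From these values, rows whose names had turned into dates (26 per table, 0.268% to 0.274% of the RPKM at 3 months) were left out, and 0 value columns were unused. Groups came from the genotype labels. Genes reaching 0.5 RPKM in 3 or more of the 6 heterozygous and wild type libraries (4 of 8 at 17 months) were compared on log2(RPKM + 0.5), a scale that understates changes of low genes. limma 3.58.1 (statmod 1.5.0, R 4.3.3) was fitted with trend and robust empirical Bayes to all 3 genotypes of an age, two-sided, with Benjamini-Hochberg adjustment over all genes tested. The ages were never pooled. The script was also tested on simulated data. Positions came from the GENCODE vM21 annotation of GRCm38, which holds 99.3% of the genes tested, and the authors' build may differ. Identical values in all 6 libraries were shared by 14 tested genes. Figures were drawn with matplotlib 3.10.9 (Python 3.11.15).

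The targeted gene, the 12 genes per direction described above, up to 3 members with the smallest p in each of 41 gene lists, the defining members of a list and 5 neighbours per side of the target were named. Beside the target, clone names, histone genes and genes with values identical to those of another gene were passed over. Genes with near-identical copies but other values, such as Hspa1a, were not. Some list members are not reported here. Genes beyond 1.5-fold, the Hox genes, Gfap, Fos, Plekhm2 and the genes with small p at both ages were added after their values were seen. The comparison, its genes and the lists were chosen with earlier results of these data known, so lists are described by counts and medians. Each result was recomputed with a pseudocount of 0.1 or 1, another filter or none, other normalizations and limma settings, fewer groups fitted, array weights, a replicate block, and without each library.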

Additional observations from a re-analysis of the deposited data

Results flagged for a closer look

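In the 17 month values of the target and the 24 named genes, 50 groups of 4 libraries were checked for a library far from the others, and chance flags about 1 group in 20. The check flagged 3 groups. Heterozygous replicate 4 was the highest of its group for Cnbd2, at 2.88 RPKM, with the other 3 between 2.53 and 2.56 RPKM. Heterozygous replicate 2 was the lowest of its group for Nnat, at 35.8 RPKM. Wild type replicate 4 was the highest of its group for Mfsd5, at 21.7 RPKM. The groups of 3 libraries at 3 months are too small for this check.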

How the results depend on the processing

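At 3 months the count of genes past the threshold was 1, the target, under all 19 alternatives. Its log2 difference ran from -0.91 to -0.83, with limma adjusted p from 6.89e-06 to 0.00294. Each of the 24 named genes kept its direction and stayed short of the threshold under every alternative run (lowest limma adjusted p = 0.0711). Genes with an unadjusted p under 0.05 numbered 490 at 3 months, between 436 and 812 over the alternatives, with 755 without a filter and 812 with array weights. List medians moved by more than the spread between replicates in 10 of 703 values, all with a library left out. At 17 months the count was 0, and 1 with only heterozygous and wild type libraries fitted, where the target passed (-0.85, limma adjusted p = 3.62e-05).

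With the replicate number as a block the 3 month count was 1 (target -0.87, limma adjusted p = 0.000337), the 17 month count was 0, and 666 genes had an unadjusted p under 0.05 at 3 months. Deviations of same-numbered heterozygous and wild type libraries correlated at 0.145, 0.108 and 0.00603 at 3 months and at -0.287, 0.14, -0.463 and -0.114 at 17 months. Only heterozygous replicates 1 and 2 at 3 months correlated best with their own number. With so few libraries per group these values cannot settle whether the numbers pair the libraries.

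With unknown read depth, precision rests on 3 libraries per group, and genes under 1 RPKM had the widest intervals.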
